A study of Gallus gallus with 2 samples.

Results

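Aminoacyl-tRNA synthetases and translation factors are the enzymes and proteins that ribosomes need to turn mRNA into protein. They were examined here in the breast muscle transcriptome of Xichuan black-bone chickens, a Chinese breed with pigmented meat, at 12 weeks of age. Members were chosen by gene symbol, namely the symbols of the synthetases with the AIMP scaffold genes, and those beginning with EIF or EEF with the release factor gene ETF1. EIF2AK2 and EIF4EBP1 were left out by the same rule. This gave 76 of 15073 listed genes, of which 33 were synthetases or scaffolds and 43 were factors. YARS2 and GSPT1, whose symbols the rule covers, were not analysed here. Test group IV received a basal diet with 0.8% added tyrosine, and the control group received the basal diet alone. All birds came from the same breed. RNA from only a few birds of each group was pooled, and a single library was sequenced from each pool. With 1 library per group, the difference between groups could not be tested, and the effect of the diet cannot be told apart from differences between the birds or the library preparations.

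Each synthetase joins 1 amino acid to its tRNA. YARS, for example, charges tRNA with tyrosine, the amino acid that was added to the feed. In animals, the cytosol and the mitochondria mostly use separate enzymes, and the genes of the mitochondrial ones end in 2. Several cytosolic synthetases are held together in the multisynthetase complex by the AIMP scaffolds. Initiation factors (EIF) bring the initiator tRNA and the ribosome to the mRNA, elongation factors (EEF) deliver charged tRNAs and move the ribosome along, and release factors end the chain. Muscle is known for exchanging the general elongation factor EEF1A1 for its relative EEF1A2 during maturation.

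The libraries contained 14318101 counted fragments in test group IV and 13135159 in the control group. Expression is given as FPKM, the number of fragments of a gene corrected for transcript length and library size. Levels of different genes are compared on this scale unless fragments are named. The lengths behind the FPKM values were not checked here except for EEF1A1 and FARSA, and comparisons of level between genes depend on them. The fold change is the ratio of the FPKM in test group IV to that in the control group, so a positive log2 value means higher expression with tyrosine. Each is given with an exact Clopper-Pearson 95% interval made from the fragment counts. These intervals cover counting error and nothing else, since PCR copies and the variation between birds are not part of them. Over the 10624 genes whose mean FPKM reached 1, the median log2 fold change was 0.09, so the bulk of the transcriptome lay slightly above 0 and members are also compared with this value. The samples are labelled breast muscle, although the title of the series names skin. The label was checked with 11 genes listed as markers of breast muscle, of which 5 were found by symbol. Troponin genes TNNI2, TNNT3 and TNNC2 and the Z-disc gene ACTN2 had between 1437 and 9424 FPKM in test group IV and between 1372 and 9943 FPKM in the control group, while PVALB had 5 fragments in test group IV and 1 in the control group.

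All 76 members were detected in test group IV, as were 14277 of the 15073 listed genes. Detection in the control group was fixed, since each listed gene had at least 1 fragment there. Of the members, 75 reached a mean FPKM of at least 1. The exception was EARS2, the mitochondrial glutamate enzyme, with 26 fragments in test group IV and 20 in the control group. Together the 75 members took 1.74% of the fragments in test group IV and 1.77% in the control group. Most of them differed little. A fold change of at least 1.5 was reached by 3 members that were higher in test group IV (EEF1A1, EIF4E2 and EIF4E3), or 3 of 43 factors and 0 of 32 synthetases, against 8.92% of all genes. At least 1.5-fold lower expression was present in 1 synthetase (WARS2) and 0 factors, against 7.27% of all genes. No member reached 2-fold in either direction, where the shares over all genes were 2.41% higher and 2.59% lower. The members had more fragments than most genes, with a median of 1563 over both libraries compared with 459 for all genes, and folds of well-covered genes scatter less. With a mean FPKM of at least 5 as the filter, 3 of 42 factors (7.14%) and 0 of 24 synthetases had 1.5-fold or more higher expression, against 5.35% of all genes, so whether the factors' share lay below or above the background depended on the filter. Across the 75 members, the log2 FPKM values of test group IV and of the control group had a Pearson's r of 0.992, a description over genes that share both libraries.

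YARS, on chromosome 23 of Galgal5 from 5279493 to 5284301, had 9.44 FPKM in test group IV and 7.64 FPKM in the control group. It had 533 fragments in test group IV and 396 in the control group. Its fold change was 1.23, a log2 value of 0.30 with a counting interval from 0.11 to 0.50. The lower end of this interval lay just above the median of all genes. YARS was not an abundant synthetase, since it ranked 20 of 33 by FPKM in test group IV and 21 of 33 in the control group. By the size of the fold change it stood among the cytosolic enzymes that were moderately higher with tyrosine, and FARSB, NARS, TARS and, by a small margin, IARS had larger values.

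**Figure D1:**
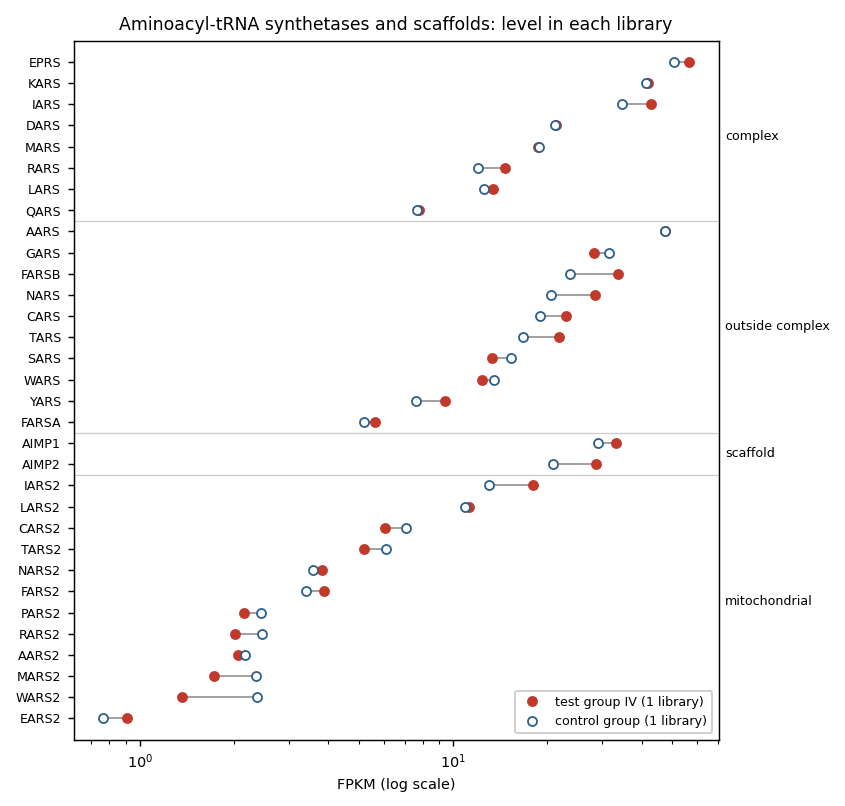
FPKM (log axis) of 32 of the 33 synthetases and scaffolds in the test group IV library (filled) and the control group library (open), grouped as members of the multisynthetase complex, other cytosolic enzymes, scaffolds and mitochondrial enzymes. Each group had 1 library, so the points carry no error bars. EPRS was the highest in both libraries and EARS2 the lowest, and no gene moved by more than 4 ranks.

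The 8 cytosolic enzymes that belong to the multisynthetase complex in animals had log2 fold changes between -0.01 and 0.31. EPRS charges both glutamate and proline tRNAs. It was the most abundant synthetase, with 56.8 FPKM in test group IV and 50.8 FPKM in the control group, and its log2 fold change was 0.16 (95% counting interval 0.09 to 0.23). IARS, the isoleucine enzyme, had 42.7 FPKM in test group IV and 34.5 FPKM in the control group, a log2 fold change of 0.31 (95% counting interval 0.22 to 0.40). KARS charges lysine and in humans also serves the mitochondria. It was nearly level, with 42.1 FPKM in test group IV and 41.2 FPKM in the control group, and its log2 fold change of 0.03 turned negative after median ratio scaling of the libraries. Of these 8 enzymes, 3 had an interval wholly above the median of all genes (EPRS, IARS and RARS) and 0 had one wholly below it. Over all genes the shares were 20.0% above and 21.5% below.

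The 2 listed scaffolds of the complex were higher in test group IV. The interval of AIMP2 lay wholly above the median of all genes, while that of AIMP1 held it. AIMP2 had 28.5 FPKM in test group IV and 20.9 FPKM in the control group, a log2 fold change of 0.45 (95% counting interval 0.30 to 0.61). AIMP1 had 33.0 FPKM in test group IV and 29.1 FPKM in the control group, a log2 fold change of 0.18 (95% counting interval 0.01 to 0.36). The log2 fold change of AIMP2 exceeded that of AIMP1 by 0.27, with an exact conditional 95% interval 0.03 to 0.50. This difference between genes does not depend on how the libraries are scaled.

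The 10 cytosolic enzymes outside the complex spread more widely, with log2 fold changes from -0.21 to 0.51. FARSB, the beta subunit of the phenylalanine enzyme, had 33.6 FPKM in test group IV and 23.6 FPKM in the control group, a log2 fold change of 0.51 (95% counting interval 0.36 to 0.66). FARSA encodes the alpha subunit of the same enzyme and had 5.61 FPKM in test group IV and 5.20 FPKM in the control group. The log2 fold change of FARSB exceeded that of FARSA by 0.40 (exact conditional 95% interval 0.13 to 0.67). The subunit genes, although their products pair, thus differed in fold change by more than the counting error. Their levels lay closer in fragments than in FPKM. FARSB had 950 fragments in test group IV and 613 in the control group, and FARSA had 354 and 301. The length implied by the fragments and FPKM of FARSA was longer than its listed span on chromosome 30, from 14208 to 18128. Its FPKM was therefore too low, and the FPKM values overstate the level difference. NARS, the asparagine enzyme on the Z chromosome, had 28.3 FPKM in test group IV and 20.5 FPKM in the control group, a log2 fold change of 0.46 (95% counting interval 0.34 to 0.59). TARS, the threonine enzyme, also on the Z chromosome, had 21.8 FPKM in test group IV and 16.8 FPKM in the control group, a log2 fold change of 0.38 (95% counting interval 0.23 to 0.53). The sex of the pooled birds is not given in the sources used here.

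CARS, the cysteine enzyme, was also higher, with 22.9 FPKM in test group IV and 19.0 FPKM in the control group. Its log2 fold change was 0.27 (95% counting interval 0.14 to 0.41). Of the 10 enzymes outside the complex, 5 had an interval wholly above the median of all genes and 4 wholly below it. Over all genes the shares were 20.0% above and 21.5% below. AARS, GARS, SARS and WARS lay at or below the level of the control group. AARS, which charges alanine, had 47.5 FPKM in test group IV and 47.6 FPKM in the control group. GARS for glycine (28.1 FPKM in test group IV and 31.6 in the control group) and SARS for serine (13.3 FPKM in test group IV and 15.3 in the control group) had intervals wholly below 0. WARS for tryptophan had 12.4 FPKM in test group IV and 13.6 FPKM in the control group. Taken as a group, the 20 cytosolic enzymes and scaffolds had a median log2 fold change of 0.13, and 12 of the 20 lay above the median of all genes.

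**Figure D2:**
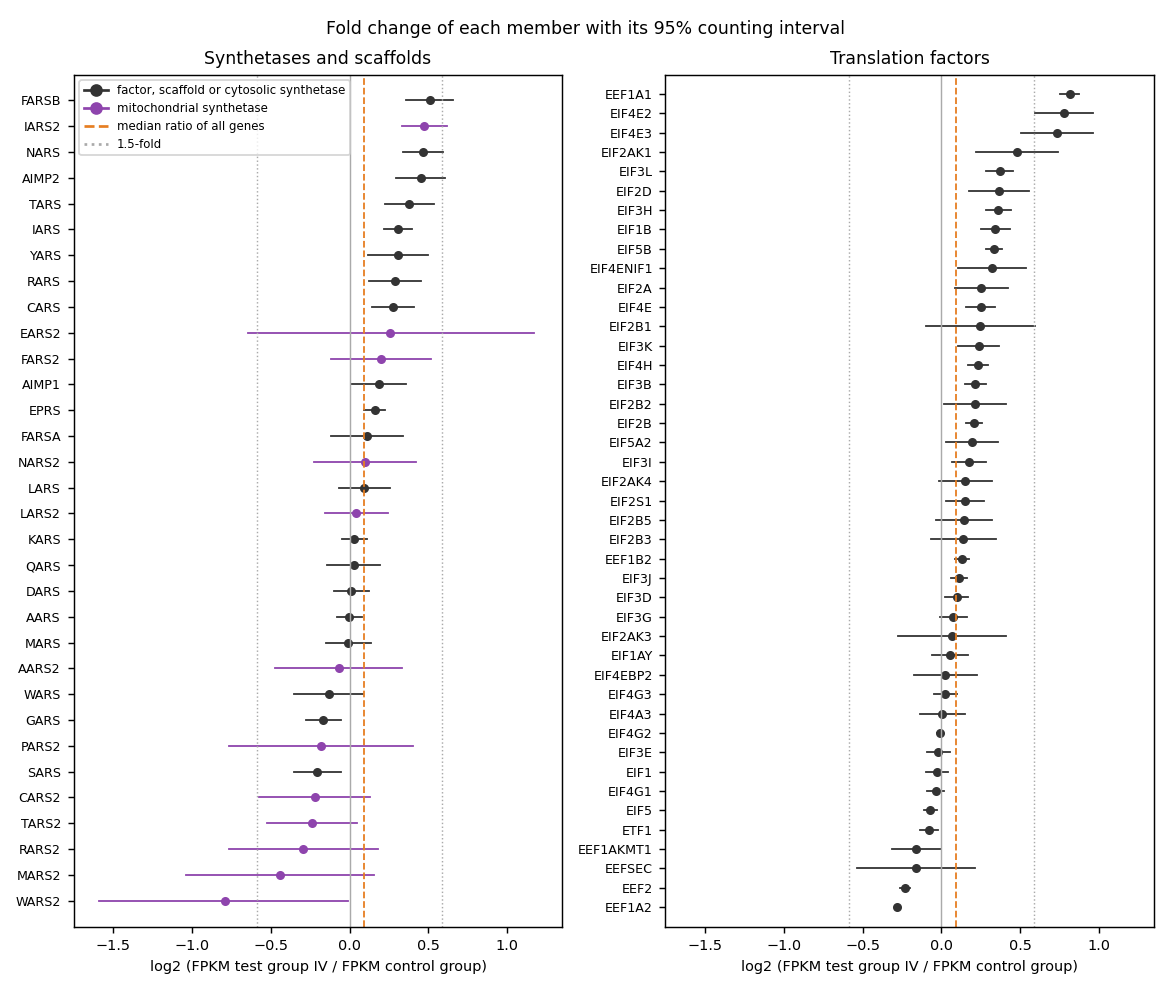
Log2 fold change (test group IV over control group) of 32 of the 33 synthetases and scaffolds and of each factor, with its 95% counting interval, sorted by value. The dashed line marks the median ratio of all genes (0.09) and the dotted lines mark 1.5-fold. EEF1A1, EIF4E2 and EIF4E3 lay above 1.5-fold and WARS2 below it, and the mitochondrial enzymes had the widest intervals.

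The mitochondrial synthetases had lower median levels than the cytosolic ones, and their fold changes went in both directions. The 12 that passed the filter had a median FPKM of 3.62 in test group IV and 2.94 in the control group, whereas the 18 cytosolic enzymes had 21.5 FPKM in test group IV and 18.9 FPKM in the control group. The median log2 fold change of the 12 mitochondrial enzymes was -0.12, while their summed level was 61.0 FPKM in test group IV and 58.4 FPKM in the control group. The interval lay wholly above the median of all genes in 2 of 12 and wholly below it in 2, beside 20.0% and 21.5% of all genes. WARS2, for mitochondrial tryptophan tRNA, had 24 fragments (1.37 FPKM) in test group IV and 38 fragments (2.36 FPKM) in the control group. Its log2 fold change was -0.79, and the interval reached from -1.59 to -0.01. After adding 1 to both FPKM values, WARS2 was no longer 1.5-fold lower. MARS2, the methionine enzyme, had 45 fragments in test group IV and 56 in the control group, and its interval from -1.04 to 0.15 held 0. In contrast, IARS2, the isoleucine enzyme, had 1014 fragments in test group IV and 670 in the control group, a log2 fold change of 0.47 (95% counting interval 0.33 to 0.62).

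For 10 amino acids, both the mitochondrial enzyme and a cytosolic partner named for the same amino acid were listed. The mitochondrial gene had the lower log2 fold change in 8 of the 10 pairs, with a median difference of -0.40. The exact conditional 95% interval of the difference lay below 0 in 4 pairs, above 0 in 1 pair, and held 0 in 5. Of these 4 pairs, threonine lay furthest below 0, where TARS2 fell short of TARS by a log2 difference of -0.62 (95% counting interval -0.94 to -0.29). Arginine followed with -0.58 (95% counting interval -1.08 to -0.08) for RARS2 against RARS. Cysteine gave -0.49 (95% counting interval -0.87 to -0.12) for CARS2 against CARS, and asparagine gave -0.37 (95% counting interval -0.72 to -0.02) for NARS2 against NARS. The partners TARS and NARS lie on the Z chromosome, and the sex of the pooled birds is not given. Phenylalanine and glutamate also had both forms listed, but their cytosolic symbols differ further, and they are not in these counts. The log2 fold change of FARS2 differed from that of FARSA by 0.09 and from that of FARSB by -0.31. For EARS2, which was below the filter, the difference from EPRS was 0.09, and all of these intervals held 0. The 10 pairs share both libraries and are not replicates, so the count of 8 of 10 has no test. The genome positions of TARS2, AARS2 and MARS2 overlap those of RPRD2, RNF8 and AIFM1, each of which had more fragments, and reads of overlapping genes may have been split between them.

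**Figure D3:**
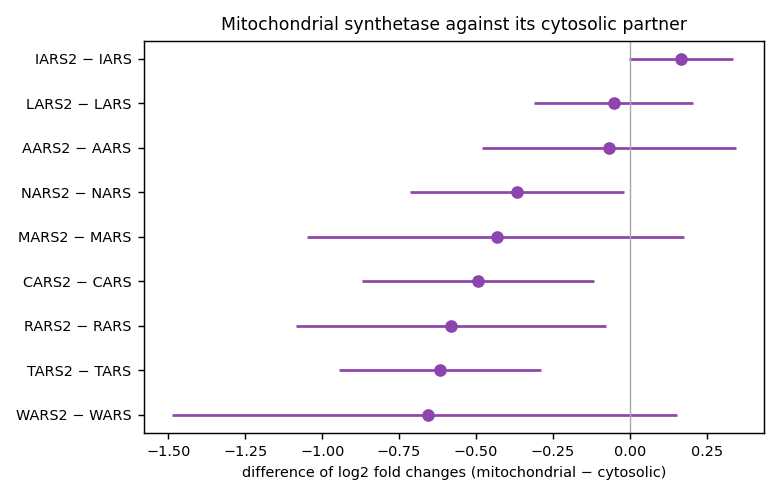
Difference between the log2 fold change of a mitochondrial synthetase gene and that of its cytosolic partner for 9 of the 10 amino acids, with its exact conditional 95% interval, which covers counting error alone. Points left of 0 mean a lower fold change of the mitochondrial gene. This holds for 8 of the 9 pairs drawn, and the pair that is not drawn had an interval wholly right of 0. TARS2, RARS2, CARS2 and NARS2 had intervals wholly left of 0.

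The 2 members with the highest FPKM in both libraries, EEF1A2 and EEF1B2, were elongation factors. EEF1A2, the muscle form of the factor that carries charged tRNA to the ribosome, had 1827 FPKM (63195 fragments) in test group IV and 2217 FPKM (70349 fragments) in the control group. Its log2 fold change was -0.28 (95% counting interval -0.29 to -0.26). EEF1A2 alone took 0.441% of all fragments in test group IV and 0.536% in the control group. EEF1A1, the general form of the same factor, moved the opposite way. It had 43.8 FPKM (6009 fragments) in test group IV and 24.9 FPKM (3140 fragments) in the control group, a log2 fold change of 0.81 (95% counting interval 0.75 to 0.87), the largest of all members. The log2 fold change of EEF1A1 exceeded that of EEF1A2 by 1.09 (95% interval of the log odds from 1.03 to 1.16). In FPKM, EEF1A2 was nevertheless 41.7 times as high as EEF1A1 in test group IV and 88.9 times in the control group. EEF1A1 thus made up 2.34% of the summed FPKM of the pair in test group IV and 1.11% in the control group. The fragment counts of both genes lay much closer together than their FPKM values. The length implied by the fragments and FPKM of EEF1A1 was longer than its listed span on chromosome 3, from 81786720 to 81791548. Its FPKM was therefore too low, and these ratios and shares overstate how far EEF1A2 exceeded EEF1A1. The true size of the gap was not worked out here. These genes encode closely related proteins, and how reads that match both were assigned is not given in the sources used here.

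EEF1A1 is expressed in most cells other than mature muscle fibers, and marker genes of such cells were therefore set beside it. In bulk tissue, more cells of a type and more RNA per cell cannot be told apart. Of 6 fibroblast markers, 5 were found, with a summed level of 367.5 FPKM in test group IV and 315.4 FPKM in the control group. Of these, 4 were higher in test group IV, while LUM was at 27.4 FPKM in test group IV and 34.5 in the control group. The 4 leukocyte markers found of 5 summed to 230.6 FPKM in test group IV and 177.4 FPKM in the control group, most of it CD74. CD74 and PTPRC were higher in test group IV. CD3E (5.22 FPKM in test group IV and 5.60 in the control group) and CSF1R (13.1 and 13.3) were slightly lower. The 4 endothelial markers found of 5 were nearly level, at 43.6 FPKM in test group IV and 44.1 FPKM in the control group. The 4 adipocyte markers found of 5 were lower, at 44.5 FPKM in test group IV and 69.5 FPKM in the control group, with CIDEC at 0 fragments in test group IV and 5 in the control group. The 7 melanocyte markers found of 10 summed to 12.7 FPKM in test group IV and 1.61 FPKM in the control group. SOX10 differed little, with 54 fragments in test group IV and 41 in the control group. The other melanocyte markers had only 1 to 10 fragments each in the control group. The 2 epidermis markers found of 6 summed to 5.06 FPKM in test group IV and 5.69 FPKM in the control group. DSG2 was higher in test group IV (12 fragments and 3 in the control group), and TP63 was lower (253 and 271). The part of any of these cell types in the EEF1A1 value was not tested.

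The remaining elongation and release factors lay close to the control group or below it. EEF1B2, which reloads EEF1A with GTP, was the second most abundant member, with 390.5 FPKM in test group IV and 357.1 FPKM in the control group, a log2 fold change of 0.13 (95% counting interval 0.09 to 0.17). EEF2 moves the ribosome to the next codon and had 175.0 FPKM in test group IV and 205.8 FPKM in the control group, a log2 fold change of -0.23 (95% counting interval -0.27 to -0.20). ETF1, which recognizes stop codons, had 139.5 FPKM in test group IV and 147.5 FPKM in the control group, a log2 fold change of -0.08 (95% counting interval -0.14 to -0.02). The 4 elongation factors summed to 2436 FPKM in test group IV and 2805 FPKM in the control group. Of the accessory genes, EEF1AKMT1, a methyltransferase of EEF1A, had 21.8 FPKM in test group IV and 24.3 FPKM in the control group. EEFSEC, the elongation factor for selenocysteine, had 4.86 FPKM in test group IV and 5.43 FPKM in the control group.

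**Figure D4:**
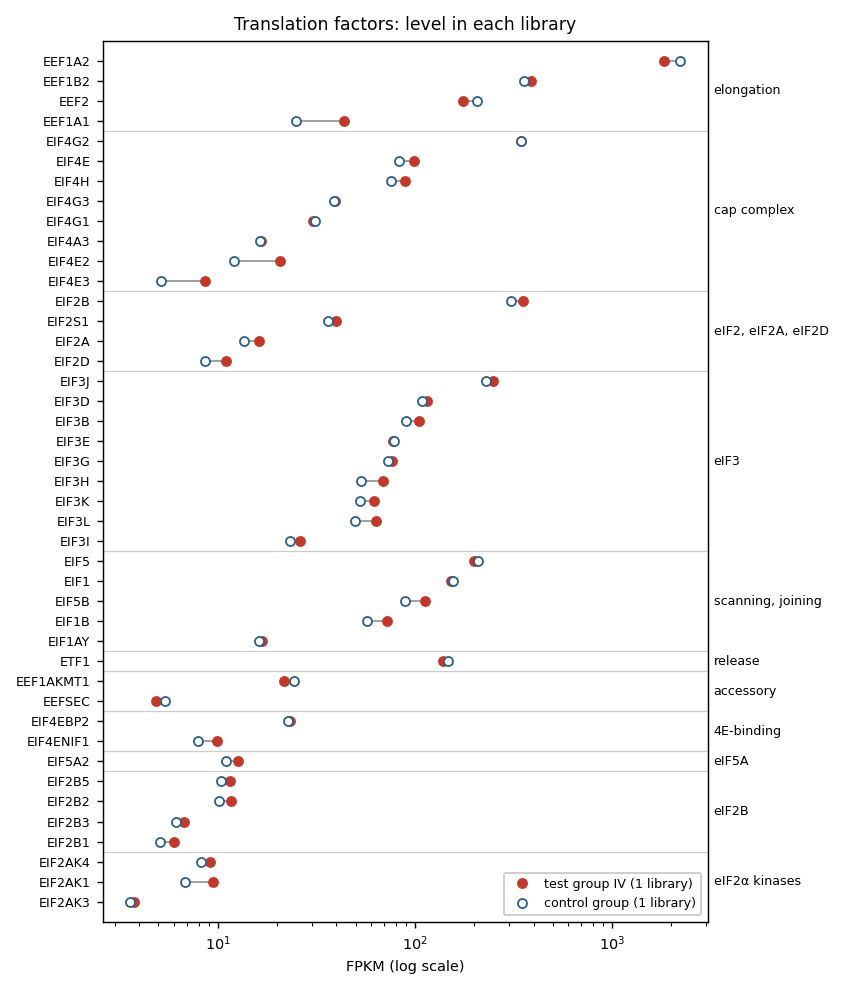
FPKM (log axis) of the 43 translation factors in the test group IV library (filled) and the control group library (open), grouped by role. Each group had 1 library, so there are no error bars. EEF1A2 stood far above the other members in both libraries, and the widest gaps between the libraries were those of EEF1A1, EIF4E2 and EIF4E3.

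Genes named EIF were mostly a little higher in test group IV. Of the 36, which include kinases of eIF2, EIF4E binding proteins and EIF5A2, 31 had a higher FPKM in test group IV, against 60.9% of all genes, and 5 a lower one, against 39.1%. After division by the median ratio of all genes the number above 0 was smaller, since 25 of 36 lay above the median of all genes. Their median log2 fold change was 0.18. Without the kinases and binding proteins, 26 of 31 were higher and 22 of 31 lay above the median of all genes. At least 25% higher expression was present in 9 of 43 factors and 6 of 32 synthetases, compared with 23.1% of all genes. At least 20% lower expression was present in 0 of 43 factors and 2 of 32 synthetases, compared with 14.6% of all genes.

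EIF4E2 and EIF4E3, relatives of the cap-binding protein EIF4E, had the largest fold changes among the genes named EIF. EIF4E recognizes the cap at the start of the mRNA, and it had 98.9 FPKM in test group IV and 83.2 FPKM in the control group, a log2 fold change of 0.25 (95% counting interval 0.16 to 0.34). EIF4E2, which in mammals acts mainly in translational repression, had 20.6 FPKM (697 fragments) in test group IV and 12.0 FPKM (373 fragments) in the control group. Its log2 fold change was 0.78 (95% counting interval 0.59 to 0.96). EIF4E3 had 8.60 FPKM (453 fragments) in test group IV and 5.18 FPKM (250 fragments) in the control group, a log2 fold change of 0.73 (95% counting interval 0.51 to 0.96). Compared with EIF4E, the log2 fold change was larger by 0.53 for EIF4E2 (exact conditional 95% interval 0.32 to 0.74) and by 0.48 for EIF4E3 (exact conditional 95% interval 0.24 to 0.73). EIF4E was 4.80 times as abundant as EIF4E2 in test group IV and 6.92 times in the control group.

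None of the other members of the cap complex or the proteins that bind EIF4E reached 1.5-fold. EIF4G2, a scaffold related to EIF4G1 that lacks the EIF4E binding site, had 345.1 FPKM in test group IV and 347.1 FPKM in the control group. EIF4G1 had 30.4 FPKM in test group IV and 31.2 FPKM in the control group, and EIF4G3 had 39.4 FPKM in test group IV and 38.8 FPKM in the control group. EIF4H, which stimulates the helicase of the complex, had 88.8 FPKM in test group IV and 75.7 FPKM in the control group. EIF4EBP2 restrains EIF4E by binding it, and had 23.2 FPKM in test group IV and 22.8 FPKM in the control group. EIF4ENIF1, which carries EIF4E into the nucleus, had 9.89 FPKM in test group IV and 7.92 FPKM in the control group, a log2 fold change of 0.32 (95% counting interval 0.11 to 0.54).

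The listed genes of eIF2, which delivers the initiator tRNA, and of its exchange factor eIF2B were all higher in test group IV by small amounts. Over all genes, 60.9% were higher. EIF2S1, the alpha subunit, had 40.0 FPKM in test group IV and 36.1 FPKM in the control group. Its log2 fold change was 0.15, and the 95% counting interval, 0.03 to 0.27, held the median of all genes. The gene listed as EIF2B is given in RefSeq as a synonym of EIF2S2, the beta subunit, on the same chromosome 20. It had 353.9 FPKM in test group IV and 306.4 FPKM in the control group, a log2 fold change of 0.21 (95% counting interval 0.16 to 0.26). EIF2D, an alternative carrier of initiator tRNA, had 11.0 FPKM in test group IV and 8.59 FPKM in the control group, a log2 fold change of 0.36 (95% counting interval 0.17 to 0.55). EIF2A, another such carrier, had 16.3 FPKM in test group IV and 13.6 FPKM in the control group. The 4 listed eIF2B subunit genes had log2 fold changes between 0.14 and 0.24, and the intervals of all 4 held the median of all genes. EIF2B1 had the highest of these, with 164 fragments in test group IV and 127 in the control group.

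Kinases that phosphorylate the alpha subunit of eIF2 slow initiation under stress. EIF2AK1 had 9.49 FPKM (311 fragments) in test group IV and 6.82 FPKM (205 fragments) in the control group, a log2 fold change of 0.48 (95% counting interval 0.22 to 0.74). EIF2AK4, which senses uncharged tRNA, had 9.16 FPKM in test group IV and 8.25 FPKM in the control group, and EIF2AK3, the kinase of the endoplasmic reticulum, had 3.77 FPKM in test group IV and 3.61 FPKM in the control group. The log2 fold change of EIF2AK1 exceeded that of EIF2AK4 by 0.33 (exact conditional 95% interval 0.01 to 0.64). Against EIF2AK3 the interval of the difference, from -0.02 to 0.85, held 0.

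The 9 listed subunits of eIF3, the scaffold that joins the small ribosomal subunit to the cap complex, had log2 fold changes between -0.02 and 0.37, with a median of 0.17. EIF3L had 63.8 FPKM in test group IV and 49.4 FPKM in the control group, a log2 fold change of 0.37 (95% counting interval 0.28 to 0.45). EIF3H had 68.7 FPKM in test group IV and 53.5 FPKM in the control group, a log2 fold change of 0.36 (95% counting interval 0.28 to 0.44). EIF3K followed with 61.8 FPKM in test group IV and 52.5 FPKM in the control group. EIF3E was slightly below the control group, joined by EIF3G after median ratio scaling, and had 77.3 FPKM in test group IV and 78.4 FPKM in the control group. EIF3J, which is loosely attached, was the most abundant, with 249.0 FPKM in test group IV and 230.4 FPKM in the control group, and EIF3D had 115.9 FPKM in test group IV and 108.4 FPKM in the control group. The levels within this complex ranged from 26.2 to 249.0 FPKM in test group IV and from 23.2 to 230.4 FPKM in the control group.

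Factors for the choice of the start codon and the joining of the ribosomal subunits were divided. EIF5B, which joins the large subunit, had 112.1 FPKM in test group IV and 89.0 FPKM in the control group, a log2 fold change of 0.33 (95% counting interval 0.28 to 0.39). EIF5, which triggers GTP hydrolysis by eIF2, had 199.9 FPKM in test group IV and 209.9 FPKM in the control group, a log2 fold change of -0.07 (95% counting interval -0.11 to -0.03). EIF1B had 72.6 FPKM in test group IV and 57.2 FPKM in the control group, a log2 fold change of 0.34 (95% counting interval 0.25 to 0.43). Its more abundant relative EIF1, which guards start codon selection, had 153.3 FPKM in test group IV and 156.3 FPKM in the control group, and the log2 fold changes of EIF1B and EIF1 differed by 0.37 (exact conditional 95% interval 0.26 to 0.49). EIF1AY, a RefSeq synonym of EIF1AX, had 16.9 FPKM in test group IV and 16.3 FPKM in the control group, and its position overlaps RPS6KA3 over 18238 bases. EIF5A2, an elongation factor in spite of its name, had 12.6 FPKM in test group IV and 11.0 FPKM in the control group.

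**Figure D5:**
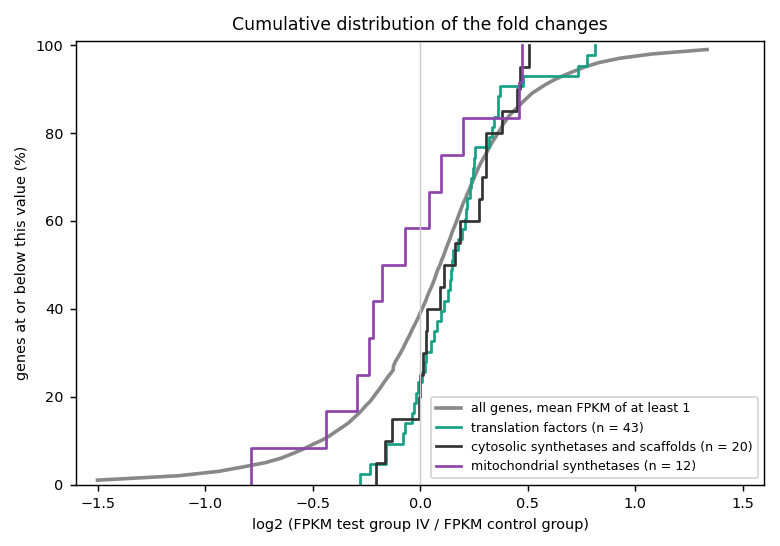
Share of genes (percent) at or below each log2 fold change (test group IV over control group) for all genes whose mean FPKM reached 1, the 43 factors, the 20 cytosolic synthetases and scaffolds and the 12 mitochondrial synthetases with that level. Medians were 0.15 for the factors, 0.13 for the cytosolic group, -0.12 for the mitochondrial group and 0.09 for all genes.

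The classes can be summed by level or by gene. The median log2 fold change was 0.07 over 32 synthetases and scaffolds, which became -0.02 once ratios were divided by the all-gene median ratio, and 0.15 over 43 factors, beside 0.09 over all genes. The 33 synthetases and scaffolds summed to 563.8 FPKM in test group IV and 508.5 FPKM in the control group, a log2 ratio of 0.15. The factors summed to 5175 FPKM in test group IV and 5336 FPKM in the control group, a log2 ratio of -0.04, and this sign was set by EEF1A2. Without EEF1A1 and EEF1A2 the other factors summed to 3304 FPKM in test group IV and 3094 FPKM in the control group, a log2 ratio of 0.09.

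Genes of the amino acid response were compared with the synthetases, because in mammals the transcription factor ATF4 raises many cytosolic synthetase genes together with ASNS and CHAC1. ATF4 itself had 255.3 FPKM in test group IV and 258.0 FPKM in the control group. Of 19 listed response genes, 13 were found and 11 passed the filter. Among these 11, 3 were higher in test group IV and 8 lower, beside 60.9% and 39.1% of all genes. Their median log2 fold change was -0.39. At least 1.5-fold higher expression was present in 2 of them, against 8.92% of all genes. At least 1.5-fold lower expression was present in 4, against 7.27%. CHAC1, a glutathione-degrading enzyme, had 137.9 FPKM in test group IV and 442.9 FPKM in the control group. ASNS, asparagine synthetase, was low but opposite, with 205 fragments in test group IV and 81 in the control group. None of the 18 cytosolic synthetases reached 1.5-fold in either direction. Their log2 fold changes lay between -0.21 and 0.51 with a median of 0.10. The mean FPKM of all 18 was above 5, and at that level 5.35% of all genes were at least 1.5-fold higher and 4.60% lower. With shares this small, 0 of 18 does not set the synthetases apart from other genes. Whether they followed the response genes was not tested.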

How the data were processed

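Breast muscle RNA of pooled birds was sequenced as 1 library per group. Reads were cleaned by the authors using Seqtk, aligned to Galgal5 with TopHat2 2.0.9 and counted with StringTie 1.3.0. The submitters' processing notes also name FastQC and HISAT2. The authors deposited whole-number fragment counts without normalization and FPKM values from a Perl script. No listed gene was at 0 fragments in the control group, and genes seen in test group IV alone were therefore not used here. Whether the counting used the strand is not given in the sources used here, and 18 members overlap another listed gene.

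Fold changes are ratios of the deposited FPKM values with no pseudocount. Clopper-Pearson 95% intervals used a relative depth of 1.09025. Differences between genes have exact conditional intervals of the odds ratio, or normal ones of the log odds above 30000 fragments. No model was fitted for the groups. edgeR 4.0.16 in R 4.3.3 gave the TMM alternative. Other steps used Python 3.11.15 with scipy 1.17.1, pandas 2.3.3, numpy 2.4.6 and, for plots, matplotlib 3.10.9. A floor of 3 fragments was set but no member needed it. Folds, intervals and counts were tested on simulated data.

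The members and lists were chosen with earlier results of these data known. Genes were named by a rule that took YARS, YARS2, GSPT1, EPRS, EEF1A1, EEF1A2, EEF2, ETF1, EIF4E and EIF2S1, the 10 synthetases and 15 factors with the largest change among those with at least 50 fragments, and the 5 synthetases and 10 factors with the highest FPKM. Further members were named after their values were seen. RefSeq (GRCg7b) was used for synonyms only, and sequences were not used here. Values of 1 mitochondrial synthetase are not reported here, although it is included in the counts, medians and sums.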

Additional observations from a re-analysis of the deposited data

How the results depend on the processing

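Alternatives were another scaling, an added constant, another filter on low values and another fold. Dividing all ratios by the median ratio of genes with an FPKM of at least 1 (1.06) or by the TMM factor (1.07) changed the sign of 10 of 76 members. The median log2 fold change of the synthetases reversed to -0.0233 with median ratio scaling and -0.0238 with TMM, and that of the factors moved to 0.0582 and 0.0577. The summed FPKM of the synthetases moved to a log2 ratio of 0.0586 with median ratio scaling and 0.0581 with TMM, and that of the factors to -0.135 with either. Leaving the mitochondrial genome, which took 9.05% of the fragments in test group IV and 7.69% in the control group, out of the totals changed the sign of 3 members (AARS, EIF4G2 and MARS). Without EEF1A1 and EEF1A2 the summed log2 ratio of the factors reversed to 0.0947. With 1 added to each FPKM value, or with a mean FPKM of at least 5, the number of synthetases at least 1.5-fold lower was 0, since WARS2 dropped out. With 25% higher or 20% lower expression as the threshold, 6 synthetases and 9 factors were higher and 2 synthetases lower, and at 2-fold the counts of synthetases lower and of factors higher were both 0. The other counts of members at 1.5-fold did not change under the scalings, added constants and filters tried, but the share of all genes at least 1.5-fold higher did. It was 8.92% as reported, 6.75% with median ratio scaling, 5.06% with 1 added and 13.9% with no filter, beside 6.98% of the factors (3 of 43) each time. No paired analysis was possible because each group has 1 library, and no library could be left out.

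Counting error limits the mitochondrial enzymes most. Their fragment counts went down to 24 in test group IV and 20 in the control group.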

Other observations

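Genes that prepare tRNAs were higher in test group IV. All 13 listed tRNA maturation genes that passed the filter had a log2 fold change above 0, with a median of 0.19, and 8 of 13 lay above the median ratio of all genes. At least 1.5-fold higher expression was present in 4 of them, against 8.92% of all genes, and lower expression of that size in 0. TRNT1, which adds the CCA end that synthetases charge, had 579 fragments in test group IV and 322 in the control group, a log2 fold change of 0.72 (95% counting interval 0.52 to 0.92). TSEN15, RPP40 and POP1, which act in tRNA splicing and end processing, had between 48 and 74 fragments in test group IV and between 25 and 40 in the control group.

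Of 7 mitochondrial translation factors, 3 were higher and 4 lower in test group IV, beside 60.9% and 39.1% of all genes, with log2 fold changes from -0.21 to 0.38. Of 15 other cytosolic translation genes, 11 were higher and 9 lay above the median ratio of all genes, with a median of 0.15 beside 0.09 over all genes. The largest value was that of CPEB4, an mRNA-binding regulator of translation, at 39.0 FPKM in test group IV and 24.9 FPKM in the control group, a log2 fold change of 0.65 (95% counting interval 0.52 to 0.77).

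EIF2AK1 and AIMP2, with log2 fold changes of 0.48 and 0.45, lie next to each other on chromosome 14 of Galgal5, with 191 bases between the end of EIF2AK1 at 976442 and the start of AIMP2 at 976634. IARS2 and EPRS, 14.3 kb apart on chromosome 3, had log2 fold changes of 0.47 and 0.16. A shared cause was not tested in either case.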
